A study of Mus musculus with 2 samples.

Results

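The kinesin motor genes are taken here as the 39 protein-coding genes whose symbol begins with Kif and a number, of 22015 protein-coding genes outside the mitochondrial chromosome and 55536 annotated genes in all. Of these, 38 encode motors and 1, Kif1bp, encodes a kinesin-binding protein. Total RNA of the left cerebral cortex was sequenced from male B6CASTF1/J mice, first-generation offspring of the strains C57BL/6J and CAST/EiJ, at 18 to 20 months of age. There is 1 group with 2 libraries, biological replicates 1 and 2, each made from 300 ng of RNA with ERCC spike-in RNAs added and with ribosomal RNA reduced. There is no second condition, treatment or age, so the comparisons are between genes and between the libraries, and no p-value is given. Both libraries carry the same donor identifier and separate biosample identifiers. Nothing says that they came from separate animals, and the spread between them may be technical.

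Kinesins are motor proteins that use ATP to walk along microtubules or to change microtubule ends. In neurons, whose axons hold microtubules with their plus ends outward, transport kinesins carry vesicles, mitochondria and other cargo from the cell body towards the synapse. Mitotic kinesins build the spindle, move chromosomes and complete cytokinesis in dividing cells, and most cortical neurons no longer divide. Other kinesins regulate microtubule growth or act in cilia. The members were sorted by these roles into 13 transport genes, 12 mitotic genes, 3 microtubule regulators, 6 cilium and Hedgehog genes, 4 other motors and Kif1bp.

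The libraries held 22827996 and 29897545 expected counts (reads shared out among transcripts by estimate) over annotated genes in replicates 1 and 2, of which the members took 166812 and 219783. All 7 neuron markers were detected, with Snap25, a synaptic fusion protein, at 1459 and 1409 TPM, the deposited unit of level, which divides reads by transcript length and scales each library to the same total. The astrocyte, oligodendrocyte, oligodendrocyte precursor, microglia and endothelial markers were all detected too, against 58.5% of protein-coding genes. All 8 striatal marker genes were lower in replicate 1 beyond counting error, against 20.4% of protein-coding genes. Their summed levels were 152 TPM in replicate 1 and 330.3 TPM in replicate 2. In bulk tissue, fewer cells of a type and less RNA per cell cannot be told apart. CAST/EiJ alleles may differ from the reference in sequence, and their effect on the counts was not measured.

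Transport kinesins were present throughout and mitotic kinesins were near the limit of measurement. At a deposited level of at least 1 TPM in both libraries, 23 of 39 members were detected (59.0%), close to the 58.5% of all protein-coding genes. The members' share is thus no sign of a family that stands out, and it differed by role. Detection held for 13 of 13 transport genes, 1 of 12 mitotic genes, 3 of 3 microtubule regulators, 3 of 6 cilium and Hedgehog genes and 2 of 4 other motors, and for Kif1bp. The median transport level was 52.5 TPM in replicate 1 and 51.0 TPM in replicate 2, and the median mitotic level was 0.21 and 0.24 TPM. On the log2(TPM + 0.1) scale the transport median exceeded the mitotic median by 7.41 in replicate 1 and 7.23 in replicate 2, a mean of 7.32 ± 0.12 (SD, n = 2), or 160-fold. The size of this difference depends on the pseudocount, because most mitotic genes lay near it.

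**Figure D1:**
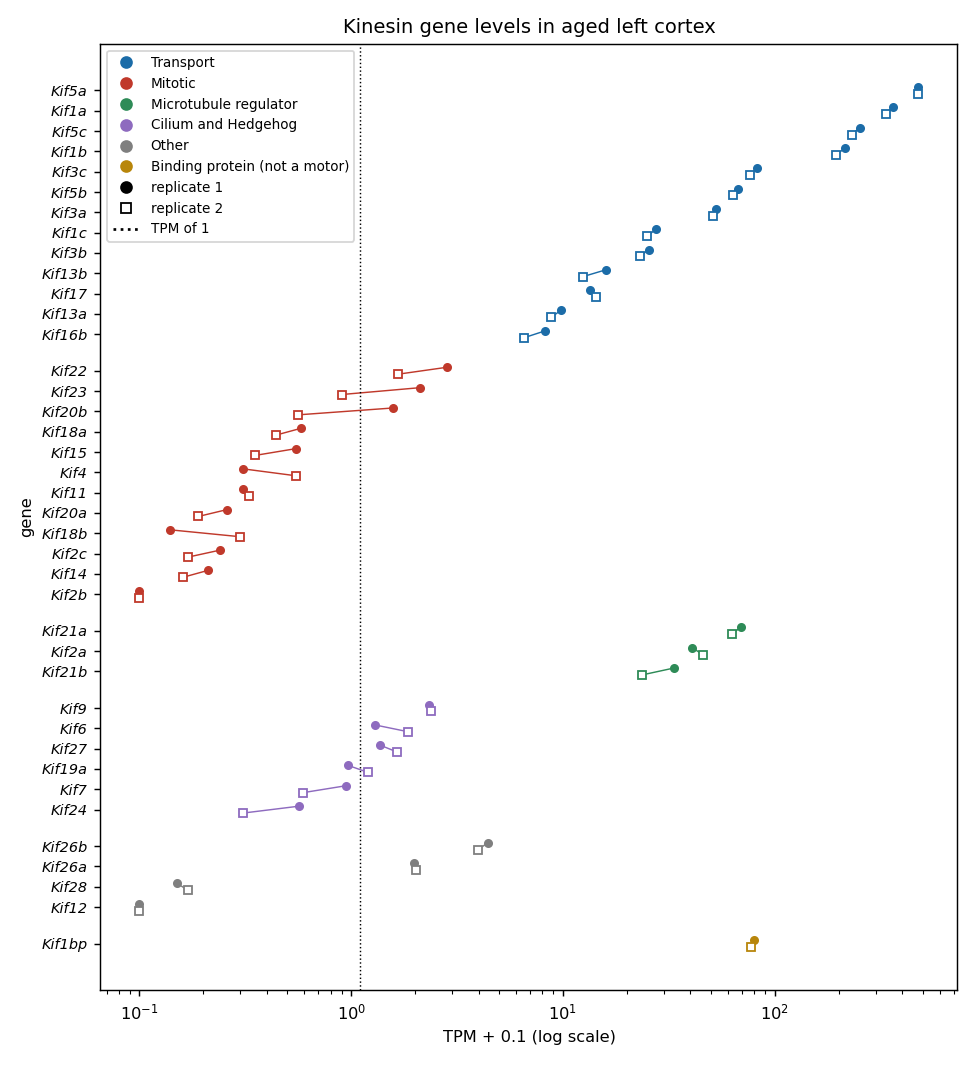
Level of each of the 39 genes (rows, grouped by role) as TPM + 0.1 on a log scale, with filled circles for replicate 1, open squares for replicate 2 and a dotted line at 1 TPM. The 13 transport genes lie between 6.46 and 477 TPM, and the 12 mitotic genes lie between 0 and 2.72 TPM.

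The kinesin-1 heavy chains, which form the conventional kinesin that moves mitochondria and vesicles along axons, held 45.7% ± 0.94 of all motor TPM (SD, n = 2). Kif5a (ENSMUSG00000074657.5, chr10:127225696-127263348, minus strand, GRCm38), a form enriched in neurons, was the highest member, at 477 TPM in both replicates, and ranked 56 among protein-coding genes. Kif5c, also enriched in neurons, had 252 and 231 TPM in replicates 1 and 2. Kif5b, the form found in most tissues, had 67.2 and 63.6 TPM. The 3 genes kept this order in both libraries, with intervals that did not overlap. Kif5a exceeded Kif5b by 2.87 ± 0.06 on the log2 TPM scale (SD, n = 2), a 7.29-fold difference, and exceeded Kif5c by 0.98 ± 0.09. In a second quantification deposited for the same libraries the order held, but Kif5a exceeded Kif5b by only 2.11 ± 0.09. Its excess over Kif5c there was 0.89 ± 0.02. The deposited TPM of Kif5a lay above its own deposited credibility interval in both libraries (452 to 462 and 458 to 466 TPM). Counted on either side, the deposited TPM lay outside its own interval for 9 of 39 members in replicate 1 and 10 in replicate 2, Kif5a included, and for 30.8% and 29.0% of protein-coding genes. Such intervals are therefore a guide to within-library error, and the files do not give their level.

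Kinesin-3 motors, which carry synaptic vesicle precursors, dense-core vesicles and endosomes, held 35.4% ± 0.79 of motor TPM. Kif1a, the main motor of synaptic vesicle precursors, had 359.9 and 334 TPM in replicates 1 and 2 and ranked 113. Kif1b, which has isoforms that carry mitochondria and synaptic vesicle precursors, had 216 and 194 TPM. Kif1c, a vesicle motor found in many tissues, had 27.4 and 24.8 TPM. Kif1a stood above Kif1b by 0.76 ± 0.03 and Kif1b above Kif1c by 2.97 ± 0.01 on the log2 TPM scale (SD, n = 2), each beyond the intervals in both libraries. The rest of the family was much lower. Kif13b, which binds the scaffold Dlg1, had 15.8 and 12.3 TPM, Kif13a, an endosome motor, had 9.66 and 8.68 TPM, and Kif16b, a motor of early endosomes, had 8.16 and 6.46 TPM. Kif13a and Kif13b could not be ordered: their log2 ratio was -0.61 ± 0.15, but their intervals overlapped in both libraries.

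Kinesin-2 motors, which work in intraflagellar transport and in axons and dendrites, held 9.82% ± 0.05 of motor TPM. Kif3a and Kif3b form a complex with the adaptor Kifap3, and Kif3c can take the place of Kif3b as the partner of Kif3a. Kif3c was the highest, at 82.2 and 76.0 TPM in replicates 1 and 2. Kif3a had 52.5 and 51.0 TPM, and Kif3b had 25.3 and 23.0 TPM. Per length, Kif3a exceeded Kif3b by 1.10 ± 0.07 on the log2 scale (SD, n = 2), but in counts not divided by length the log2 ratio was -0.0080, so the order of these genes rests on transcript length, 3161 bases for the leading Kif3a transcript and 5635 bases for Kif3b. Kif17, a homodimeric motor reported to carry NMDA receptor subunits into dendrites, had 13.3 and 14.2 TPM. An exon of Kif17 overlaps Sh2d5 on the same strand, which had 1419 and 2084 counts, so reads of these genes may have been shared.

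The adaptors and cargo linkers of these motors were present as well. All 16 matched partner genes were detected at 1 TPM or more in both libraries, beside the 58.5% of protein-coding genes. This list includes Kif1bp, which is also counted among the members. Clstn1, a cargo receptor for kinesin-1, was the highest at 610.1 and 596 TPM in replicates 1 and 2. The kinesin light chain Klc1 had 353 and 350.2 TPM, while Klc3 was the lowest at 1.35 and 1.85 TPM. Kifap3 had 85.5 and 87.4 TPM, and Kif1bp, which binds kinesins and regulates several of them, had 79.7 and 76.8 TPM. All 8 genes of the dynein and dynactin list, the motor that moves the opposite way, were detected. Kinesins named outside the Kif-number series ranged widely, with Kifc2, a minus-end motor of neurons, at 189 and 177 TPM and Cenpe, the kinetochore motor, at 0.36 and 0.64 TPM.

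The mitotic class together held 143 counts in replicate 1 and 163 in replicate 2, against 151495 and 200515 for the transport class, and 0.362% ± 0.129 of motor TPM against 90.9% ± 0.20 (SD, n = 2). Kif22, a chromosome-binding motor, was the highest with 2.72 and 1.56 TPM in replicates 1 and 2, on only 17 and 10 counts. Kif23, the motor of the centralspindlin complex in cytokinesis, had 2.02 and 0.80 TPM on 33 and 27 counts. Kif20b, also of cytokinesis, had 1.48 and 0.46 TPM. All 3 were higher in replicate 1 in TPM, but their count ratios did not differ beyond counting error. Kif18a, which damps chromosome movements, had 0.48 and 0.34 TPM, and Kif15, a spindle motor, had 0.45 and 0.25 TPM. Kif4, a chromosome motor that works with Prc1, had 0.21 and 0.45 TPM. Kif11, the motor that pushes spindle poles apart, was the most even of these at 0.21 and 0.23 TPM. Kif20a, Kif18b, Kif2c and Kif14 had between 0.04 and 0.20 TPM. Kif2b, a kinetochore depolymerase, had 0 counts in both libraries, which allows up to 3 counts in each by counting error alone.

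Between the classes there was no overlap in either library. The lowest lower bound of a transport gene was that of Kif16b, at 7.10 TPM in replicate 1 and 5.83 TPM in replicate 2. The highest upper bound of a mitotic gene was that of Kif22, at 5.08 and 3.29 TPM. The second quantification was deposited as transcript estimates and summed here per gene. In it Kif16b was again the lowest transport gene, at 11.01 and 9.40 TPM, and the highest mitotic gene was Kif23, at 5.84 and 2.07 TPM. Some low levels were the least firm. The mean level in the second quantification was 33.8-fold that in the first for Kif2c, 6.58-fold for Kif14 and 5.23-fold for Kif15. For transport genes this fold ran from 1.38 (Kif3b) to 2.50 (Kif5b). Kif20b, Kif18a, Kif4, Kif11 and Kif20a lay within that range, Kif23 and Kif18b above it, and Kif22 below it at 0.70. Exons of Kif20a, Kif4, Kif18a and Kif22 overlap genes on the opposite strand, and the sources used here do not give the strand setting of the counting.

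Members of the same structural family with different roles were set side by side. Kif1a stood 12.1 ± 0.54 above Kif14, a kinesin-3 motor of cytokinesis, on the log2 TPM scale (SD, n = 2). In the second quantification this difference was 10.4 ± 0.79. Kif14 had only 6 and 8 counts in replicates 1 and 2. Its TPM of 0.11 and 0.06 lay below its own interval in both libraries, so the SD understates the uncertainty. Among kinesin-13 depolymerases Kif2a stood 8.76 ± 0.83 above Kif2c, but only 4.0 ± 0.99 in the second quantification. Within kinesin-4, Kif21b stood 6.51 ± 1.13 above Kif4, and 6.08 ± 0.37 in the second quantification. Of 15 pairs within families that were compared, 13 had intervals apart in the same direction in both libraries, and the exceptions were Kif13a with Kif13b and Kif9 with Kif6.

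Other genes of cell division were low in the same libraries. Of 16 mitotic partner genes, 2 were detected, against 58.5% of protein-coding genes: Racgap1, which binds Kif23 in centralspindlin, with 4.46 and 5.34 TPM, and Tpx2, a spindle assembly factor, with 1.21 and 1.04 TPM. The median of the list was 0.37 TPM in replicate 1 and 0.295 TPM in replicate 2. Mki67, a marker of cycling cells, had 0.27 and 0.13 TPM, and Cdk1, the kinase that starts mitosis, had 0 and 0.04 TPM. Oligodendrocyte precursors, which can divide in adult cortex, were marked by Pdgfra at 12.5 and 12.6 TPM. Their part in the mitotic levels was not tested.

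Promoter sequence was a feature that the choice of members had not used. RefSeq windows from 250 bases before to 50 bases after a start site (GRCm38.p6) were found for 31 of 39 members, giving 12 windows of 10 transport genes and 11 windows of 11 mitotic genes. They were searched on both strands for 6 motifs, among them the CHR element, TTTGAA, known from genes of the late cell cycle, and the CCAAT box, CCAAT, which often lies upstream of it. TTTGAA occurred in 1 of 12 transport windows and 9 of 11 mitotic windows, against 17.9% of all 32851 windows. Wholly within 20 bases of the start site, a distance chosen after the positions were seen, it occurred in 0 transport windows and 6 mitotic windows, against 1.95% of all windows. CCAAT occurred in 4 of 12 transport windows (3 of 10 genes) and 7 of 11 mitotic windows, against 37.4% of all windows. The stretches below show the 3 highest transport genes with a window and 4 of the 6 mitotic genes with a match near the start site. The mitotic ones were thus chosen for that match. Only stretches with at most 30 bases of annotated exon are printed, which left out Kif15 and Kif22. The stretches do not cover the same span: those of Kif23, Kif20b and Kif18b end where the motif ends, at positions 8, 19 and 9 of the transcript, and those of Kif11 and the transport genes end at -1. TTTGAA and CCAAT, or their reverse complements TTCAAA and ATTGG, are in capitals.
Kif1a: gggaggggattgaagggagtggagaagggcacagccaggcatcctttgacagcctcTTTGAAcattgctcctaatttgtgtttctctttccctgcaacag
Kif5c: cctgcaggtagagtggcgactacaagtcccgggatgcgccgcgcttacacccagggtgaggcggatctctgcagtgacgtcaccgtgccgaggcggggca
Kif1b: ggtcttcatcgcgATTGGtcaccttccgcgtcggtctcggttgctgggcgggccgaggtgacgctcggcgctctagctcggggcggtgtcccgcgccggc
Kif23: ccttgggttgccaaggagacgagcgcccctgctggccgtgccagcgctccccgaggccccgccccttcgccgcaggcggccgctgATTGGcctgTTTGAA
Kif20b: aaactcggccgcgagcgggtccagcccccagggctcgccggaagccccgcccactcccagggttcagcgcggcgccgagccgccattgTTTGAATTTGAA
Kif11: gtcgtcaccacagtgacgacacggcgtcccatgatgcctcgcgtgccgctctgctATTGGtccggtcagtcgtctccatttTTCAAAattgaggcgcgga
Kif18b: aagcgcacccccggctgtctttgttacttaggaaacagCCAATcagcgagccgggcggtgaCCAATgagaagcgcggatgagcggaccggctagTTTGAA
Each is 100 bases, 5′ to 3′ on the strand of the gene, from RefSeq on GRCm38.p6. The positions are Kif1a at chr1:93082481-93082580, minus strand; Kif5c at chr2:49619186-49619285, plus strand; Kif1b at chr4:149307734-149307833, minus strand; Kif23 at chr9:61946792-61946891, minus strand; Kif20b at chr19:34922277-34922376, plus strand; Kif11 at chr19:37376282-37376381, plus strand; and Kif18b at chr11:102925116-102925215, minus strand.

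In Kif23 it begins 3 bases into the transcript and follows an inverted CCAAT at position -7. Kif20b has TTTGAA directly repeated, at positions 8 and 14. Kif18b has CCAAT at -53 and -30 ahead of TTTGAA at position 4, and Kif11 has inverted CCAAT at -45 ahead of inverted TTTGAA at -19. Kif5c holds neither motif here, and Kif1b holds an inverted CCAAT at -87 and no TTTGAA. The 1 transport match, in Kif1a at -44, belongs to a RefSeq start inside the annotated gene (chr1:93015464-93101951), and the window at the upstream Kif1a start holds none. None of these matches overlaps another. Of the other motifs, the GC box GGGCGG occurred in 9 transport and 6 mitotic windows (35.7% of all), CGCGCG in 3 and 2 (11.3%), TATAAA in 1 and 1 (13.6%), and the second CHR form TTCGAA in 0 and 0 (1.56%). A match describes letters in these windows and does not show a bound site.

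**Figure D2:**
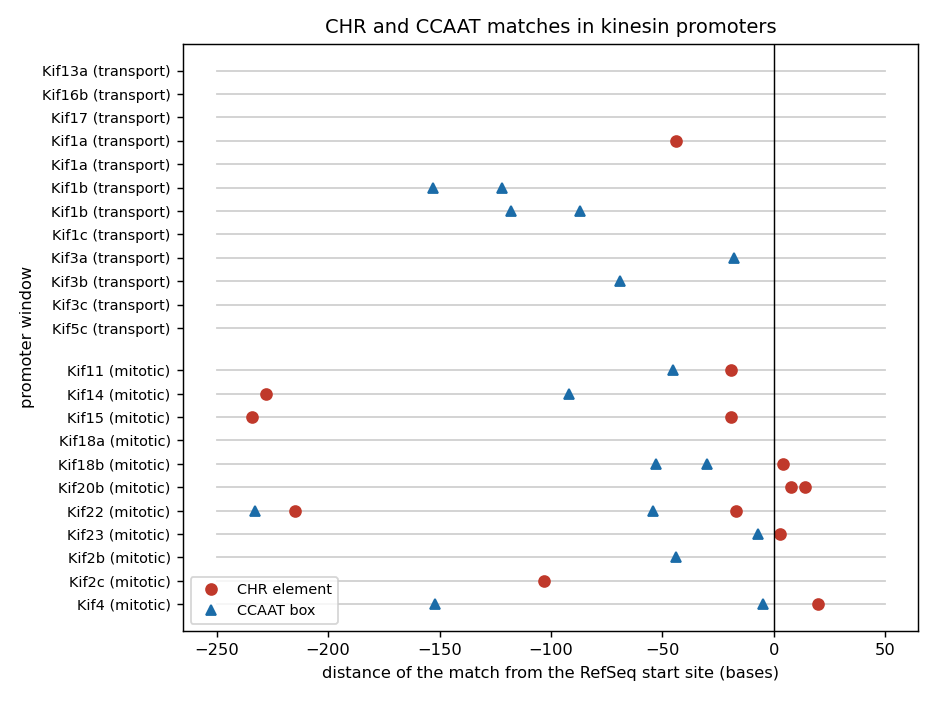
Position of TTTGAA (red circles) and CCAAT (blue triangles) on either strand, in bases from the RefSeq start site, in 12 transport windows (upper rows) and 11 mitotic windows (lower rows); each grey line is 1 window of 300 bases. Mitotic windows have circles close to the start site in 6 genes, while the 1 transport circle lies at -44.

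The microtubule regulators were expressed at levels like those of the middle transport genes. Kif21a, which slows microtubule growth at the cell cortex, had 68.9 and 62.5 TPM in replicates 1 and 2. Kif2a, a depolymerase that restrains axon branches, had 40.6 and 45.7 TPM. Kif21b, a regulator of microtubule growth found in neurons and immune cells, had 33.4 and 23.6 TPM. Kif21b lay below Kif21a by a log2 TPM ratio of -1.23 ± 0.26 (SD, n = 2), with intervals apart in both libraries.

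The cilium and Hedgehog class was low but not absent. Kif9, a motor of motile cilia and sperm tails, had 2.24 and 2.29 TPM in replicates 1 and 2. Kif27, needed for motile cilia, had 1.27 and 1.55 TPM, and Kif6, reported in ependymal cilia, had 1.19 and 1.76 TPM. Kif19a, which limits cilium length, had 0.87 and 1.10 TPM, and Kif7, the Hedgehog pathway kinesin, had 0.84 and 0.49 TPM. Of 7 matched ependymal cilium markers 3 were detected, against 58.5% of protein-coding genes, and the list summed to 11.7 and 11.6 TPM. Rsph1 made up most of that sum, at 7.0 and 7.21 TPM, and Foxj1, the master factor of motile cilia, had 1.89 and 1.68 TPM. The part of these cells in the cilium class was not tested. Kif24, which restrains cilium assembly, had 14 and 9 counts in the first quantification but 203 and 208 in the second, mostly in a transcript not annotated as protein-coding, so its level was not settled.

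Of the other motors, Kif26b had 4.32 and 3.88 TPM in replicates 1 and 2 and Kif26a had 1.87 and 1.93 TPM. These belong to kinesin-11, whose motor domains are atypical, and Kif26a was below Kif26b by a log2 TPM ratio of -1.11 ± 0.14 (SD, n = 2). Kif28 had 0.05 and 0.07 TPM, and Kif12 had 0 counts in both libraries.

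Transcript estimates differed between classes in how much fell on protein-coding transcripts. Among transport genes the median share of a gene's TPM in such transcripts was 93.5% in replicate 1 and 96.4% in replicate 2. Among the 11 mitotic genes with a value it was 58.1% and 70.8%. Protein-coding genes at a mean of 5 TPM or more had medians of 86.7% and 90.4%, and the 4149 genes under 1 TPM had medians of 100% in both. These backgrounds were not limited to genes with more than 1 transcript. A gene whose only transcript is coding has a share of 100% by construction. The 11 mitotic genes had 2 to 17 transcripts each, so the backgrounds are not matched to them. The mitotic shares rest on 36 counts or fewer per gene and moved widely between libraries: for Kif20a the share was 0% in replicate 1 and 100% in replicate 2, and for Kif22 it was 64.5% and 24.2%. Among detected genes outside the mitotic class, Kif6 had the share 12.5% and 13.6%, and a retained-intron transcript led it.

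**Figure D3:**
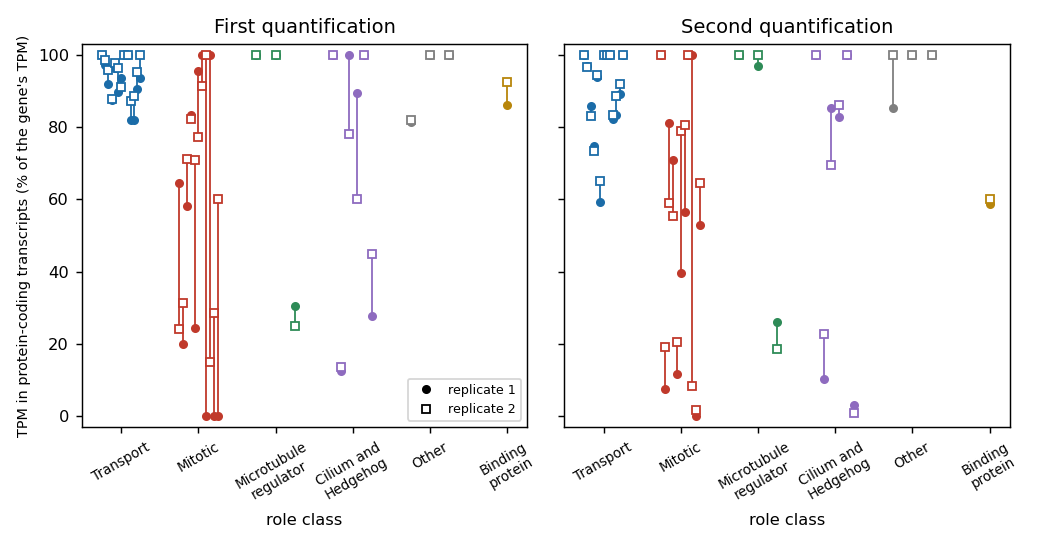
Percent of each gene's TPM held by transcripts annotated protein-coding, by role class, in the first (left) and second (right) quantification, with filled circles for replicate 1 and open squares for replicate 2 joined by a line. In the first quantification transport genes lie between 81.9% and 100%, mitotic genes spread from 0% to 100%, and Kif21b, among the microtubule regulators, lies at 30.5% and 25.1%.

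Kif21b (ENSMUSG00000041642.18, chr1:136131389-136177998, plus strand, GRCm38) had the lowest coding share among the well-measured members, with 3567 and 3869 counts in replicates 1 and 2. Its leading transcript in both libraries and both quantifications was Kif21b-204, which is annotated as a target of nonsense-mediated decay, the pathway that removes transcripts with an early stop codon. Kif21b-204 held 43.7% and 58.8% of the gene's TPM in replicates 1 and 2, while the protein-coding Kif21b-201 held 30.5% and 25.1%. In the second quantification Kif21b-204 held 37.7% and 56.1%, and Kif21b-201 held 26.1% and 18.7%. A leading transcript not annotated as protein-coding, in both libraries, was found in 5.94% of 9375 protein-coding genes with at least 5 TPM and more than 1 transcript. Kif21b-204 has an exon that Kif21b-201 lacks, its exon 35 of 36, at chr1:136173472-136173651 on the plus strand (GRCm38), inside what Kif21b-201 has as an intron. The first 100 bases of that exon are shown because they hold the stop codon of the annotated Kif21b-204 reading frame, which is in capitals.
Kif21b-204 exon 35: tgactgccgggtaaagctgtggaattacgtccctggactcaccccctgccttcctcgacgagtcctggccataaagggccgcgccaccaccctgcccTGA
The reading frame of Kif21b-204 takes 97 bases of the exon before this TGA. That of Kif21b-201 lacks the exon and ends further on, at position 136174088. The stop is thus earlier by position, and the lengths of the encoded proteins were not compared. The sequence is the GRCm38 reference on the plus strand, with GENCODE M21 exon positions.

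Of 16 members at 5 TPM or more in both libraries with more than 1 transcript, 14 had the same leading transcript in both replicates (87.5%, against 89.5% of protein-coding genes), and 12 had it in all 4 estimates, against 67.8%. Kif5a was nearly a single transcript, with Kif5a-201 at 98.8% and 99.3% in replicates 1 and 2. Kif5c-201 held 90.7% and 95.6% of Kif5c. The long Kif1b-203, of 10233 bases, held 79.8% and 81.4% of Kif1b, and the shorter protein-coding Kif1b-202, of 5992 bases, held 4.15% and 3.46%. In the second quantification Kif1b-203 held 61.6% and 61.9%, and Kif1b-202 held 10.4% and 9.79%. Kif3c was split, with Kif3c-205 at 47.8% and 43.5% and Kif3c-201 at 47.3% and 50.7%, so its leading transcript changed between libraries. Estimates of Kif1a depended on the quantification: Kif1a-204 held 69.0% in both libraries in the first, against 45.4% and 45.1% in the second, where the 528-base Kif1a-206 held 31.1% and 32.4%. For Kif17, Kif21a and Kif2a the quantifications put different transcripts first.

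The libraries gave similar kinesin levels. Counts were scaled by the trimmed mean of M-values (TMM), and a member was called where the exact 95% interval of its count ratio excluded equality. Of 37 members with a ratio, 3 were higher in replicate 1 and 9 were lower, against 10.9% and 20.4% of protein-coding genes. These shares were close to the background, and the intervals cover counting error only. Of the 20 best-counted members (mean count at least 100), 2 lay higher and 7 lower, against 14.2% and 28.4% of genes counted as deeply, with log2 ratios from -0.24 to 0.23 and a median of -0.05, as in all such genes at this rounding. None of these 20 passed 2-fold, a size reached by 0.275% of such genes.

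Kif21b was higher in replicate 1 by a log2 ratio of 0.23, with a counting interval from 0.16 to 0.29. Kif13b was higher by 0.17, from 0.06 to 0.28, with 1264 and 1426 counts. Kif7 was higher by 0.63, from 0.04 to 1.23, on 55 and 45 counts. These 3 were called higher in replicate 1 under all 6 other settings tried, and the ratio of Kif21b ranged from 0.20 to 0.50 over them. Of these settings, only the second quantification moved the median ratio of protein-coding genes down. The rest were therefore weak tests of a higher call. The lower calls changed with the setting. Kif5a (-0.14), Kif5c (-0.08), Kif5b (-0.13), Kif3c (-0.05) and Kif1bp (-0.11) were lower in replicate 1 with TMM, but turned to 0 or above by deposited TPM, and Kif5c, Kif3c, Kif1bp and Kif2a (-0.10) turned by spike-in scaling. Over the 11646 protein-coding genes with a mean count of at least 100, the median log2 ratio shifted by 0.13 with spike-in scaling and by 0.15 with deposited TPM. It shifted by 0.05 with TMM over protein-coding genes and by -0.04 in the second quantification. With DESeq2 size factors and a prior of 1 it shifted by 0.0016 and 0.00052. Upward shifts keep higher calls and remove lower ones, so these settings cannot compare how firm the higher and lower calls are. The split of calls was 3 higher and 9 lower with TMM, 12 and 0 with spike-ins, 6 and 4 with TMM over protein-coding genes, 5 and 13 in the second quantification, and 16 and 2 by deposited TPM. Kif17 (-0.21) was below 0 under every setting tried and was called lower under 4 of 6. Kif4 and Kif19a, with few counts, were also called lower, at -0.89 and -0.73, and kept that call under 4 and 2 of the 6 other settings. The striatal markers were lower in replicate 1 with a median log2 ratio of -1.20, and their part in the kinesin ratios was not tested.

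**Figure D4:**
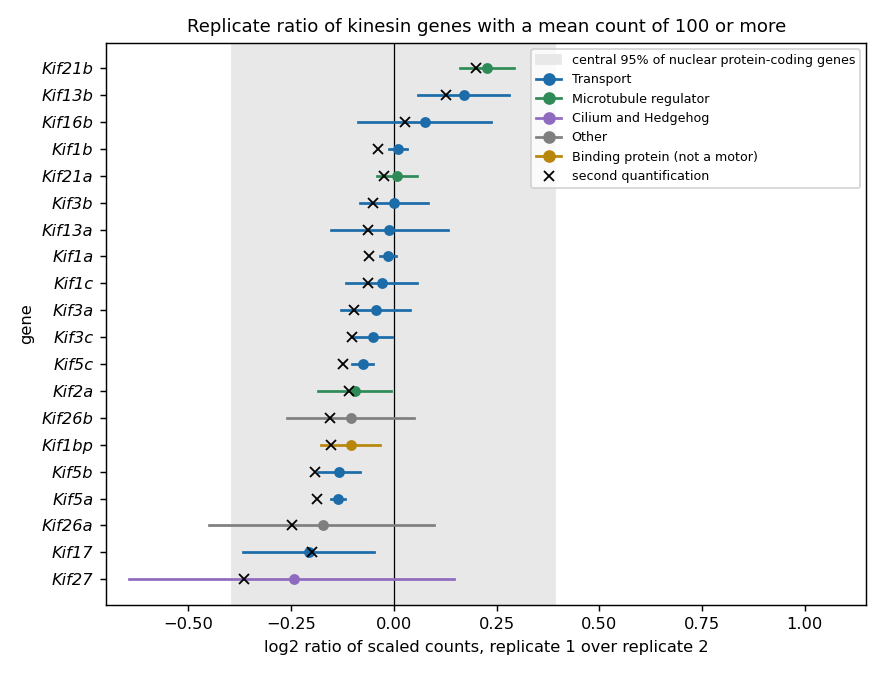
Log2 ratio of TMM-scaled counts, replicate 1 over replicate 2, for the 20 members with a mean count of 100 or more; points are ratios, bars are exact 95% counting intervals, crosses are the second quantification, and the grey band is the central 95% of protein-coding genes. The ratios run from 0.23 for Kif21b to -0.24 for Kif27, and all points lie within the band, which reaches from -0.40 to 0.39.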

How the data were processed

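Total RNA-seq was analysed in 2 libraries of 1 group. Per the file headers, the authors deposited expected counts, TPM, posterior mean TPM and credibility bounds per gene and per transcript in the RSEM layout, with each transcript's percent of its gene (here the first quantification). They also deposited estimated counts and TPM per transcript in the kallisto layout (the second), which were summed per gene here. The deposited file list names mm10 and GENCODE M21, while tool versions and the strand setting were not given in the sources used here. TPM is scaled by the authors within each library.

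Members were matched by symbol and joined by gene ID; every member is named by role class, and those at a mean of 1 TPM or more are given in both libraries. The members and lists were chosen with earlier results of these data known. Expected counts were rounded, 0.5 was added, and libraries were scaled with TMM (edgeR 4.0.16, R 4.3.3), with size factors of DESeq2 1.42.0 as an alternative; neither tool's test was used. Exact Clopper-Pearson 95% intervals came from SciPy 1.17.1 and cover counting error only. Class medians were compared as log2(TPM + 0.1), and pairs of genes as log2 ratios of TPM without a pseudocount. With 1 group and 2 libraries no model of conditions could be fitted. The ratio and interval code was tested on simulated data. Depth was 22827996 and 29897545 expected counts, so a gene at 0 counts may hold up to 3.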

Additional observations from a re-analysis of the deposited data

How the results depend on the processing

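No paired analysis was possible because there is a single group. The number of mitotic genes detected, 1, became 2 at a threshold of 0.5 TPM, 0 at 5 TPM and 3 in the second quantification. It became 5 by posterior mean TPM and 3 after rescaling over protein-coding genes. Leaving out a library gave 1 to 3. The 1 gene as reported was Kif22, which had 2.32 and 0.67 TPM in replicates 1 and 2 in the second quantification. The 3 genes detected there were Kif23, Kif15 and Kif2c. The transport minus mitotic difference of 7.32 became 5.43 with a pseudocount of 1, 7.79 with 0.01, 6.90 in the second quantification, 5.98 by posterior mean TPM, 7.01 over members at a mean of 0.1 TPM or more, 7.19 with Kif21a, Kif21b and Kif2a added to transport, and 8.01 without 6 mitotic genes that have reported roles outside mitosis; each library alone gave 7.41 and 7.23. The transport median stayed above in each of these.

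Of the counts of members called higher in replicate 1, 3 became 12 with spike-ins, 6 with TMM over protein-coding genes, 5 in the second quantification and 16 by deposited TPM; the 9 called lower became 0, 4, 13 and 2. By spike-ins the log2 ratio was 0.049 for Kif5c, 0.074 for Kif3c, 0.031 for Kif2a and 0.020 for Kif1bp. By deposited TPM it was 0.00070 for Kif5a, 0.13 for Kif5c, 0.11 for Kif3c, 0.079 for Kif5b and 0.053 for Kif1bp. Kif3a over Kif3b was -0.0080 in counts not divided by length, where length is the difference in construction. For the rest the cause was not tested. Leaving out a library was not run for the replicate ratio, which needs both.

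Counts under 50 per gene limit the mitotic levels, their transcript shares and their ratios.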
